A study of Rattus norvegicus with 54 samples.

Results

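The birth of the rat was followed here in hind limb skeletal muscle, as the difference between the first postnatal day (P1) and the last foetal age of the series (foetal day 22, F22). Members were the 10 muscle arrays that the labels give these ages, 5 at P1 and 5 at F22, out of 54 arrays in the series. The P1 muscles came from newborn Wistar rats on their first day of life, and the F22 muscles came from unborn Wistar rats that were taken from the uterus by surgery. The labels call the arrays of a group biological replicates, and they give neither the litter nor the sex nor the hour of collection, so the p-values measure the spread between these animals. Muscle arrays at F16, F20 and P4, also 5 each, entered the model to estimate that spread. All groups were untreated animals of 1 strain.

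At birth a rat pup loses the placental supply of glucose and begins to live on milk, which is rich in fat. Muscle fibres can burn either fuel, and the pyruvate dehydrogenase complex, which is switched off by its kinases, decides how much glucose carbon enters the mitochondria. Glucocorticoids from the adrenal glands help foetal organs to mature before birth. Their nuclear receptor binds DNA and switches on a set of genes that is shared by many tissues, while in muscle it works with FOXO factors on genes of protein breakdown.

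Levels are log2 intensities after robust multi-array averaging (RMA), so a difference of 1 stands for 2-fold. The median level of the 10 arrays lay between 8.03 and 8.06. The defining markers of skeletal muscle were present in both groups. *Acta1*, skeletal actin, averaged 14.07 at P1 and 13.98 at F22, and the muscle creatine kinase *Ckm* averaged 13.49 and 13.31 at the same ages. Markers of skin were present too, and the epidermal keratin *Krt10* averaged 13.64 at P1 and 13.75 at F22. Over the 9 keratinocyte markers the mean level per array was 11.23 to 11.85 at P1 and 11.19 to 11.78 at F22, and none of the 9 passed the limma test (1 had an unadjusted p of at most 0.05). In such bulk samples fewer cells of a type and less RNA per cell cannot be told apart.

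One array stood apart. F22 replicate 5 had a mean correlation of 0.987 with the other F22 arrays across 14506 genes, against 0.994 to 0.995 for the other 4 F22 arrays and for all 5 P1 arrays. Its root mean square distance was 0.274 to the P1 mean and 0.300 to the mean of the other F22 arrays, so it lay nearer to P1 than to its own label. The remaining F22 arrays were 0.241 to 0.268 from the P1 mean and 0.136 to 0.161 from the mean of their own group. On F22 replicate 5, 156 genes differed over 2-fold from the mean of the other F22 arrays, 13 above and 143 below. The other 9 arrays had 7 to 34 such genes. The genes that were low on it included interferon-stimulated genes (*Usp18*, *Oas1a*), erythroid genes (*Hbe1*, *Ahsp*) and genes of the epidermis such as *Lce1f*, of the late cornified envelope, and the largest difference from the other F22 arrays was -3.72, in *Wfdc18*. The mean level of the 9 keratinocyte markers was 11.19 on it, against 11.62 to 11.78 on the other F22 arrays, and the part of skin in the values of this array was not tested. The results below are therefore given with it and, where it matters, without it.

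Between P1 and F22, 2532 of 15310 probe sets with a single gene symbol were called (limma, Benjamini-Hochberg adjusted p of at most 0.05), which is 16.5% of those tested. They were 1338 higher and 1194 lower at P1. Only 38 were higher and 23 lower by over 2-fold. When each gene was represented by its brightest probe set, 1295 of 14506 genes were higher at P1 (8.93%) and 1158 were lower (7.98%), and on 893 and 720 of these the P1 and F22 arrays did not overlap. Called or not, 2043 of the 14506 genes had no overlap between the groups. The shares of genes called are the background for the gene lists that follow. Leaving out F22 replicate 5 gave 1325 genes higher (9.13%) and 1403 lower (9.67%). Of the 2453 genes called with all arrays and the 2728 called without that array, 2130 were called in both with the same direction.

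**Figure D1:**
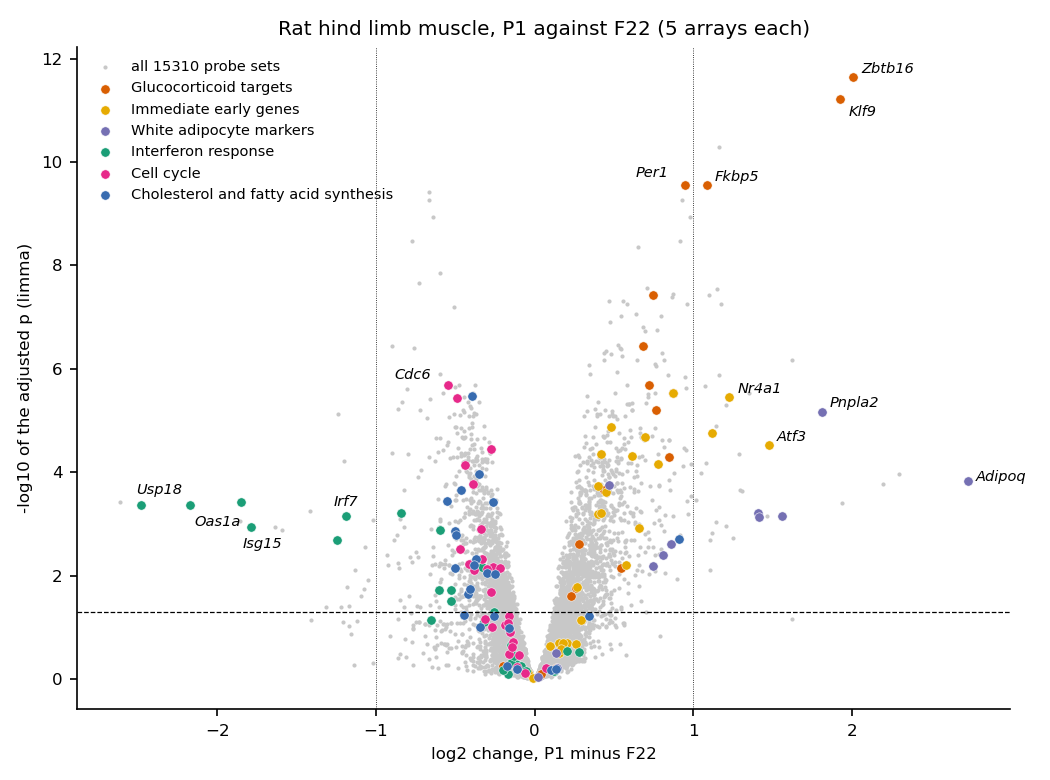
Each probe set is plotted by its log2 change, P1 minus F22 (x axis), and by -log10 of its adjusted p (y axis), with genes of 6 lists in colour. The dashed line is an adjusted p of 0.05 and the dotted lines are 2-fold changes. *Zbtb16* and *Klf9* stand at the top right, and the interferon-stimulated genes from *Irf7* to *Usp18* lie on the left side among other probe sets.

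Targets of the glucocorticoid receptor were higher at P1. Of 18 measured genes of this list, 15 were higher at P1 and none was lower, and the median log2 change was 0.70, against -0.01 over all genes. The mean level of the list was 9.85 to 10.01 on the P1 arrays and 9.18 to 9.28 on the F22 arrays, so the groups did not overlap. *Zbtb16*, which encodes the transcription factor PLZF, had levels of 11.21, 11.09, 11.29, 11.21 and 11.20 at P1 and 9.16, 9.16, 9.36, 9.16 and 9.14 at F22. All 5 P1 arrays lay far above all F22 arrays. The log2 change was 2.01 (SE 0.10, adjusted p = 2.28e-12), a 4.02-fold difference. *Klf9*, a Krüppel-like factor that also responds to thyroid hormone, had 10.11, 9.90, 10.19, 10.12 and 10.19 at P1 and 8.11, 8.11, 8.29, 8.08 and 8.29 at F22. Its change was 1.93 (SE 0.10), again without overlap. *Fkbp5*, a co-chaperone that restrains the receptor itself, stood at 10.63, 10.41, 10.73, 10.63 and 10.54 at P1 and 9.55, 9.50, 9.65, 9.56 and 9.25 at F22.

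Smaller rises were spread over the same list. The clock repressor *Per1* rose by 0.95, the MAP kinase phosphatase *Dusp1* by 0.87, the lipoprotein lipase inhibitor *Angptl4* by 0.85, the metallothionein *Mt2A* by 0.77, the kinase *Sgk1* by 0.75 and *Tsc22d3*, which encodes the anti-inflammatory protein GILZ, by 0.72. The receptor gene *Nr3c1* rose by 0.23. *Hsd11b1*, whose enzyme regenerates active glucocorticoid from its inert form, rose by 0.54, and its groups overlapped. Without F22 replicate 5, 14 of the 18 genes were called higher, and the median was again 0.70. The gene that dropped out was *Ddit4*, with an adjusted p of 0.0546.

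**Figure D2:**
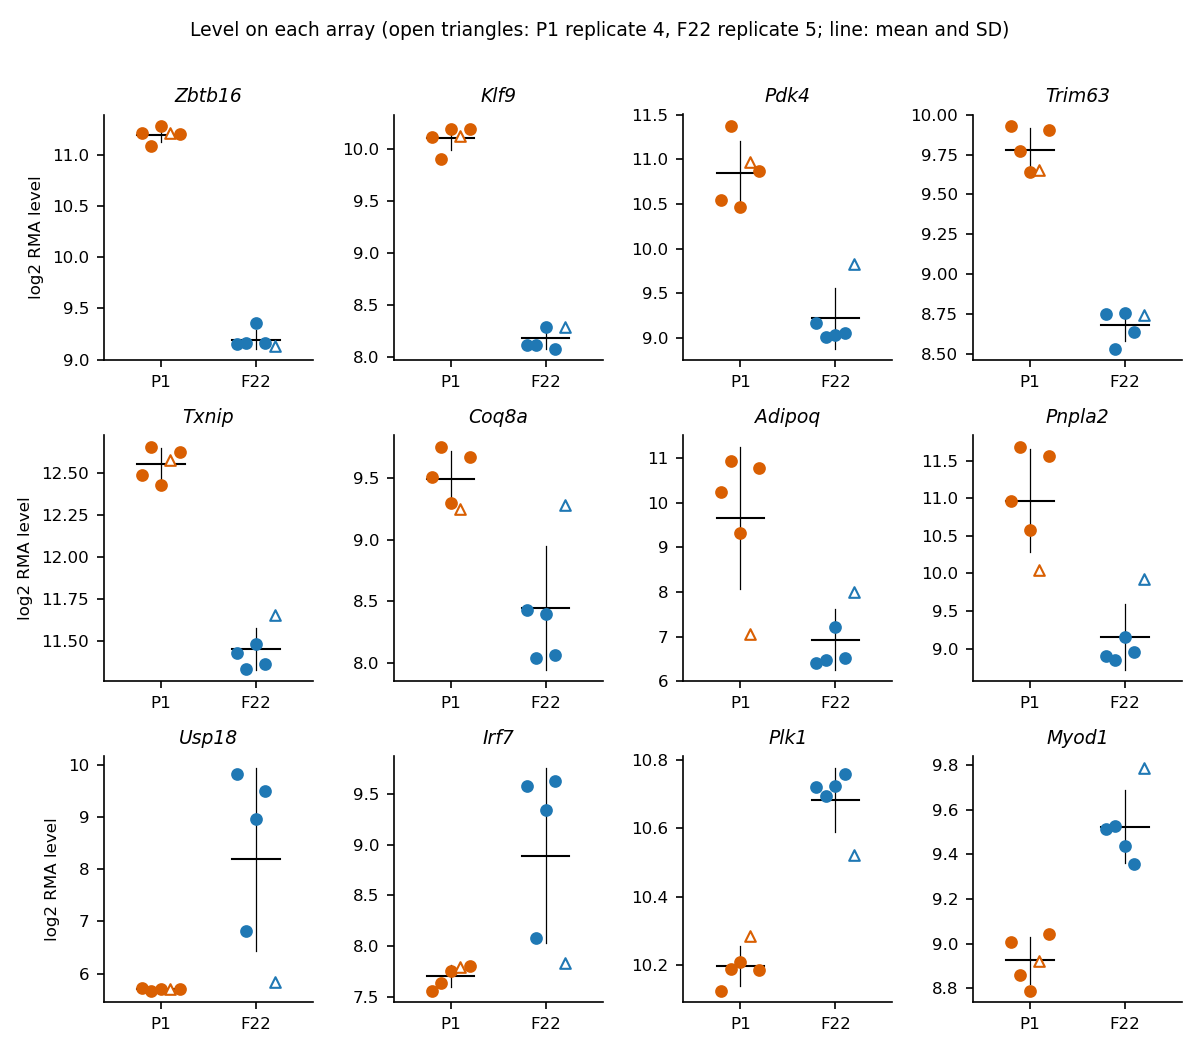
The log2 RMA level (y axis) of 12 genes is shown for each P1 and F22 array as a point, with the group mean and SD as lines. P1 replicate 4 and F22 replicate 5 are open triangles. *Zbtb16*, *Klf9*, *Trim63* and *Txnip* separate the groups with little spread, *Adipoq* varies most, with the groups drawn together by P1 replicate 4 and F22 replicate 5, and *Usp18* spreads widely at F22 only.

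Genes of muscle protein breakdown and the FOXO pathway moved in the same direction. Of 19 measured genes, 11 were higher at P1 and none lower (median 0.28). *Trim63*, the ubiquitin ligase MuRF1 that marks sarcomere proteins for degradation, had 9.93, 9.77, 9.64, 9.65 and 9.90 at P1 and 8.75, 8.53, 8.76, 8.64 and 8.74 at F22. *Fbxo32*, the ubiquitin ligase atrogin-1, had 9.41, 9.65, 9.46, 9.54 and 9.57 at P1 and 8.69, 8.54, 8.59, 8.58 and 8.60 at F22. Neither gene had any overlap between the groups, and the log2 changes were 1.10 (SE 0.10, adjusted p = 3.68e-08) and 0.93 (SE 0.06, adjusted p = 5.52e-10). The transcription factors *Foxo1* and *Foxo3* rose by 0.56 and 0.33, the mTORC1 inhibitor *Sesn1* by 0.58 and the mitophagy receptor *Bnip3* by 0.55. Without F22 replicate 5, 9 of the 19 genes were called and the median was 0.20. The measured members *Ddit4*, *Klf15* and *Mt2A* also stand on the glucocorticoid list.

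In the insulin and growth hormone axis 3 of 25 measured genes were higher and 2 lower, near the shares of all genes. The suppressors of cytokine signalling *Socs2* and *Cish*, both classical responders to growth hormone, rose by 0.76 and 0.50. *Socs2* had 10.26, 10.18, 10.14, 10.16 and 10.23 at P1 and 9.45, 9.33, 9.29, 9.43 and 9.68 at F22, without overlap. *Igf2bp1*, an RNA-binding protein of foetal tissues, had a change of -0.45. The growth hormone receptor *Ghr* (0.19) missed the threshold without F22 replicate 5 (adjusted p = 0.0652). Thyroid hormone genes gave 3 higher and 2 lower of 13.

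Immediate early genes, which answer to growth factors, stretch and stress within minutes, were higher at P1 in 16 of 26 cases and lower in none (median 0.41). *Atf3*, a stress-induced transcription factor, had 10.67, 9.66, 10.21, 9.50 and 10.55 at P1 and 8.68, 8.15, 8.81, 8.62 and 8.94 at F22, a change of 1.48 (SE 0.21) without overlap. *Nr4a1*, an orphan nuclear receptor, changed by 1.23 and *Fos* by 1.12 (adjusted p = 3.58e-06 and 1.76e-05). The P1 arrays differed among themselves here. *Fos* ranged over 10.21, 8.99, 9.74, 9.52 and 10.16 at P1, against 8.60, 8.47, 8.56, 8.64 and 8.75 at F22, with the lowest P1 array above the highest F22 array. The matricellular genes *Ccn1* and *Ccn2* rose by 0.78 and 0.70. Leaving out F22 replicate 5 also gave 16 genes higher.

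Of 15 measured clock genes, 10 were higher at P1 and none lower (median 0.28). They included both repressors and activators of the clock, which peak at opposite hours in adult tissue. The REV-ERB repressors *Nr1d2* and *Nr1d1* rose by 0.96 and 0.73, the period genes *Per1*, *Per2* and *Per3* by 0.95, 0.92 and 0.44, and the activator *Bmal1* by 0.43. *Nr1d1* had 8.62, 8.75, 8.58, 8.79 and 8.85 at P1 and 7.88, 7.73, 7.84, 7.89 and 8.60 at F22, where replicate 5 alone reached the P1 range. The hour at which the tissues were taken is not given, so a difference in hour and a difference in age cannot be told apart for these genes.

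In the control of pyruvate dehydrogenase 8 of 13 measured genes were higher at P1 and none lower (median 0.32). *Pdk4*, the kinase that switches the complex off when fat is burnt, had 10.55, 11.38, 10.47, 10.97 and 10.87 at P1 and 9.17, 9.01, 9.04, 9.06 and 9.83 at F22. Its log2 change was 1.62 (SE 0.18, adjusted p = 6.72e-07). All P1 arrays were above all F22 arrays, and F22 replicate 5 was the highest of its group, so the change was 1.78 without it. The opposing phosphatase *Pdp1* rose by 0.61, the E1 subunit genes *Pdhb* and *Pdha1* by 0.46 and 0.41, and the mitochondrial pyruvate carrier genes *Mpc1* and *Mpc2* by 0.43 and 0.32. The kinase and parts of its target thus moved in the same direction. Without F22 replicate 5 the counts were 10 higher and 1 lower.

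Fatty acid oxidation genes were higher in small steps. Of 19 measured genes, 14 were higher at P1 and none lower (median 0.27), and 13 without F22 replicate 5. The thiolase *Acaa2* had 11.47, 11.69, 11.45, 11.58 and 11.75 at P1 and 11.16, 11.10, 11.00, 11.13 and 11.02 at F22. The medium- and long-chain acyl-CoA dehydrogenases *Acadm* and *Acadl* both changed by 0.43, and the isomerase *Eci2* by 0.43. *Cpt1b*, the muscle form of the carnitine palmitoyltransferase that admits fatty acids to the mitochondrion, changed by 0.51 with overlapping groups (adjusted p = 0.0466), and it missed the threshold when any 1 of 8 arrays was left out. The liver form *Cpt1a* changed by 0.39.

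Among lipid-responsive targets of the PPAR receptors 11 of 18 were higher and none lower (median 0.36). Lipoprotein lipase (*Lpl*), which frees fatty acids from circulating triglyceride, had 11.70, 11.99, 11.28, 10.99 and 12.04 at P1 and 10.39, 10.39, 10.53, 10.25 and 10.73 at F22. Its change was 1.14 (SE 0.15). The fatty acid transporter *Cd36* rose by 0.67, the acyl-CoA synthetase *Acsl1* by 0.75 and the muscle uncoupling protein *Ucp3* by 0.63. *Lpl*, *Cd36* and *Acsl1* are also expressed by adipocytes, whose markers moved between the same groups as described below. The part of adipocytes in these values was not tested.

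Glucose uptake and glycogen genes were divided, with 6 of 18 higher and 1 lower (median 0.21). *Txnip*, an arrestin that restrains glucose uptake and is induced by glucose itself, had 12.49, 12.65, 12.43, 12.58 and 12.62 at P1 and 11.43, 11.33, 11.48, 11.36 and 11.65 at F22, a change of 1.10 (SE 0.07, adjusted p = 2.79e-10). Its relative *Arrdc4* rose by 0.57. The insulin-responsive glucose transporter *Slc2a4* (GLUT4) changed by 0.79, and its groups overlapped only through F22 replicate 5, which stood at 9.08 against 9.03 to 9.66 at P1. The glycogen-targeting phosphatase subunit *Ppp1r3b* moved the other way, with 8.66, 8.62, 8.64, 8.47 and 8.85 at P1 and 9.35, 9.47, 9.44, 9.37 and 9.26 at F22, a change of -0.73. Of 22 glycolytic genes, 2 were higher and 1 lower, and without F22 replicate 5 the counts were 6 and 1.

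Genes of the citric acid cycle and the respiratory chain had smaller median changes. Of 14 citric acid cycle genes, 6 were higher and none lower (median 0.17), among them the succinyl-CoA ligase subunit *Sucla2* (0.34) and the isocitrate dehydrogenase subunits *Idh3b*, *Idh3a* and *Idh3g* (0.28, 0.24 and 0.23). Of 66 genes of the respiratory chain and ATP synthase, 9 were higher and none lower (median 0.09), against 8.93% higher among all genes. The largest of them was the complex I subunit *Ndufb7* at 0.26, whose groups overlapped. *Ndufa9*, another complex I subunit, had 11.52, 11.67, 11.47, 11.52 and 11.66 at P1 and 11.46, 11.36, 11.47, 11.37 and 11.47 at F22, and its change of 0.14 had an adjusted p of 0.184. None of 68 cytosolic ribosomal protein genes was called in either direction by limma, and none had an unadjusted p of at most 0.05.

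Coenzyme Q, the electron carrier between the first complexes and complex III, is made by the products of the *Coq* genes. Of 12 measured genes of its synthesis, 4 were higher at P1 and none lower (median 0.15). *Coq8a*, an atypical kinase that sustains the biosynthetic complex, had 9.50, 9.75, 9.30, 9.25 and 9.67 at P1 and 8.43, 8.04, 8.40, 8.07 and 9.28 at F22. Its change was 1.05 (SE 0.17, adjusted p = 0.000104). F22 replicate 5 at 9.28 fell within the P1 range, and without it the change was 1.26. *Coq3*, a methyltransferase, rose by 0.28 without overlap, and *Coq9*, a lipid-binding partner of the hydroxylase, by 0.25 with overlap. The *Coq9* call was lost when F22 replicate 1, 2 or 4 or P1 replicate 2 or 5 was left out. It was also lost in a fit of only the 10 arrays of F22 and P1. *Coq10a*, a coenzyme Q chaperone, had a change of 0.36 with an adjusted p of 0.0488, and it was 0.53 without F22 replicate 5. Its call was lost when F22 replicate 1, 2, 3 or 4 or P1 replicate 1, 2, 4 or 5 was left out. A limma fit of only the 10 arrays of F22 and P1 lost it as well (adjusted p = 0.142).

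The remaining genes of the pathway did not pass the test. The changes were 0.05 for the prenyltransferase *Coq2*, 0.02 for *Coq4*, 0.14 for the methyltransferase *Coq5*, 0.15 for the hydroxylase *Coq6*, 0.04 for the hydroxylase *Coq7*, 0.14 for the kinase-like *Coq8b*, 0.17 for *Coq10b* and 0.03 for the chain-synthesis subunit *Pdss2*. *Coq6* (adjusted p = 0.0639) passed without F22 replicate 5 (adjusted p = 0.0455).

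Of 17 regulators of mitochondrial biogenesis, 5 were higher and 1 lower. The coactivator *Ppargc1a* (PGC-1 alpha) had 9.05, 9.12, 8.78, 8.88 and 8.97 at P1 and 8.49, 8.01, 8.33, 8.24 and 8.35 at F22, a change of 0.68 with no overlap. The fatty acid receptor *Ppara* rose by 0.63 and the mitochondrial transcription factor *Tfb2m* by 0.34. The related coactivator *Pprc1* was lower, with a change of -0.37. *Pparg*, the receptor that directs adipocyte formation, had 9.73, 9.92, 8.97, 8.26 and 10.15 at P1 and 8.01, 8.06, 8.93, 8.00 and 8.51 at F22, so that P1 replicate 4 lay inside the F22 range.

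Markers of white adipocytes moved with age. Of 12 measured, 9 were higher at P1 and none lower, with a median of 0.83. Their mean level was 8.25 to 9.72 on the P1 arrays and 7.94 to 8.46 on the F22 arrays, and the overlap came from P1 replicate 4 at 8.25 and F22 replicate 5 at 8.46. The adipokine *Adipoq* had 10.25, 10.92, 9.31, 7.05 and 10.78 at P1 and 6.41, 6.49, 7.21, 6.53 and 8.00 at F22. Its change of 2.73 (SE 0.46, adjusted p = 0.00015) was the largest increase of all probe sets, and 4 of 5 P1 arrays exceeded every F22 array. Without P1 replicate 4 and F22 replicate 5, a choice made after seeing the data, it was 3.65. The next largest increases were in the mitochondrial carbonic anhydrase *Car5b* and the glycerol-3-phosphate dehydrogenase *Gpd1*, at 2.30 and 2.20, whose groups overlapped as well. *Plin1*, which coats the adipocyte lipid droplet, had 9.10, 9.78, 8.37, 7.27 and 9.91 at P1 and 7.05, 7.25, 7.34, 7.21 and 7.77 at F22.

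The same P1 array was low for the other genes of fat storage. The fatty acid binding protein *Fabp4* changed by 1.41, the droplet protein *Cidec* by 1.41 and the hormone-sensitive lipase *Lipe* by 0.75, all with overlapping groups. Adipose triglyceride lipase (*Pnpla2*), which starts triglyceride breakdown in fat and in muscle, did not overlap, with 10.96, 11.69, 10.58, 10.04 and 11.56 at P1 and 8.90, 8.85, 9.15, 8.96 and 9.92 at F22, a change of 1.81. The lipogenic regulator *Thrsp* had 9.93, 10.54, 8.69, 7.21 and 9.97 at P1 and 7.26, 7.24, 7.25, 7.23 and 7.65 at F22, and P1 replicate 4 was its lowest array of all. *Lpin1*, a phosphatidate phosphatase and coactivator, had 9.17, 9.71, 8.48, 8.21 and 9.85 at P1 and 7.79, 7.75, 7.86, 7.80 and 7.78 at F22. The brown fat protein *Ucp1* changed by 0.24 and was not called (adjusted p = 0.401), nor was leptin (*Lep*, 0.14).

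Genes of cholesterol and fatty acid synthesis took the opposite direction. Of 24 measured, 14 were lower at P1 and 1, *Scd*, was higher (median -0.35). The demethylase *Cyp51* had 10.73, 10.68, 10.65, 10.50 and 10.50 at P1 and 11.24, 11.45, 11.31, 11.22 and 10.62 at F22. F22 replicate 5 was again close to the P1 arrays, and the change was -0.56 with it and -0.69 without it. The reductase *Dhcr7*, the epoxidase *Sqle* and the dehydrogenase *Nsdhl* changed by -0.50, -0.50 and -0.50. Their groups overlapped. *Mvd*, of the mevalonate pathway, did not overlap (-0.39, adjusted p = 3.3e-06). Without F22 replicate 5, 19 genes were lower and 2 higher.

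Cell cycle genes were lower at P1. Of 27 measured, 14 were lower and none higher (median -0.27), and without F22 replicate 5 the count was 22. *Cdc6*, which licenses replication origins, had 8.70, 8.86, 8.85, 8.91 and 8.94 at P1 and 9.36, 9.47, 9.48, 9.50 and 9.17 at F22. *Plk1*, a mitotic kinase, had 10.12, 10.19, 10.21, 10.28 and 10.18 at P1 and 10.72, 10.69, 10.72, 10.76 and 10.52 at F22. Neither overlapped, and the changes were -0.54 (SE 0.06, adjusted p = 2.05e-06) and -0.49 (SE 0.06, adjusted p = 3.63e-06). The cyclins *Ccne2* and *Ccnb1* changed by -0.44 and -0.39, and the spindle genes *Kif20a* and *Cdc20* by -0.47 and -0.41. Which cells of the limb divided was not measured.

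Myogenic genes gave calls in 1 direction. Of 14 myogenic and fusion genes, 5 were lower and none higher. The determination factor *Myod1* had 9.01, 8.86, 8.79, 8.92 and 9.04 at P1 and 9.51, 9.53, 9.44, 9.36 and 9.79 at F22, a change of -0.60 (adjusted p = 0.00113). *Myog*, its partner in differentiation, changed by -0.42, the cadherin *Cdh15* by -0.48 and the homeobox factor *Six4* by -0.36, none with overlap. The satellite cell factors *Myf5* and *Pax3* did not pass (-0.18 and -0.01), nor did the fusion protein *Mymk* (-0.17).

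Of 18 genes of adult fast fibres, 6 were higher at P1 and none lower (median 0.26), and 8 without F22 replicate 5. The Z-disc protein *Actn3* had 10.83, 11.29, 10.81, 10.83 and 11.14 at P1 and 10.20, 9.56, 10.16, 9.74 and 10.87 at F22, and only F22 replicate 5 reached the P1 range. The fast myosin-binding protein *Mybpc2* rose by 0.85 and the fast myosin *Myh2* by 0.42, both without overlap. None of 10 developmental sarcomere isoforms was called by limma, and 1 was lower at an unadjusted p of at most 0.05. In calcium handling 3 of 20 were higher, namely the junctional protein *Trdn* (0.76) and the store-operated entry genes *Stim1* and *Orai1* (0.30 and 0.37). Without F22 replicate 5 the count was 5 of 20.

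At the neuromuscular junction the foetal receptor subunit *Chrng* had a change of -0.33 and the adult subunit *Chrne* one of 0.28. These are the subunits that replace each other after birth. *Chrng* did not overlap between the groups but missed the threshold without F22 replicate 5 (adjusted p = 0.0605), while *Chrne* overlapped. Of 15 genes at the junction, 1 was higher and 3 lower, and without F22 replicate 5 they were 2 and 1.

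Targets of ATF4, the transcription factor of amino acid shortage, were mixed, with 3 of 23 higher and 7 lower. *Asns*, asparagine synthetase, had 10.44, 10.47, 10.22, 10.20 and 10.82 at P1 and 11.31, 11.11, 11.62, 11.35 and 10.90 at F22, a change of -0.83 without overlap. The serine and proline synthesis genes *Phgdh* and *Pycr1* changed by -0.36 and -0.32. *Atf4* itself rose by 0.32. The cystine transporter *Slc7a11* had 7.34, 7.04, 7.04, 7.24 and 7.12 at P1 and 8.62, 8.85, 9.20, 8.66 and 6.37 at F22. Its F22 replicate 5 was below all P1 arrays, and the change was -1.18 with it and -1.68 without it. That call was lost when F22 replicate 2 or 3 was left out, and in a fit of only the 10 arrays of F22 and P1.

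**Figure D3:**
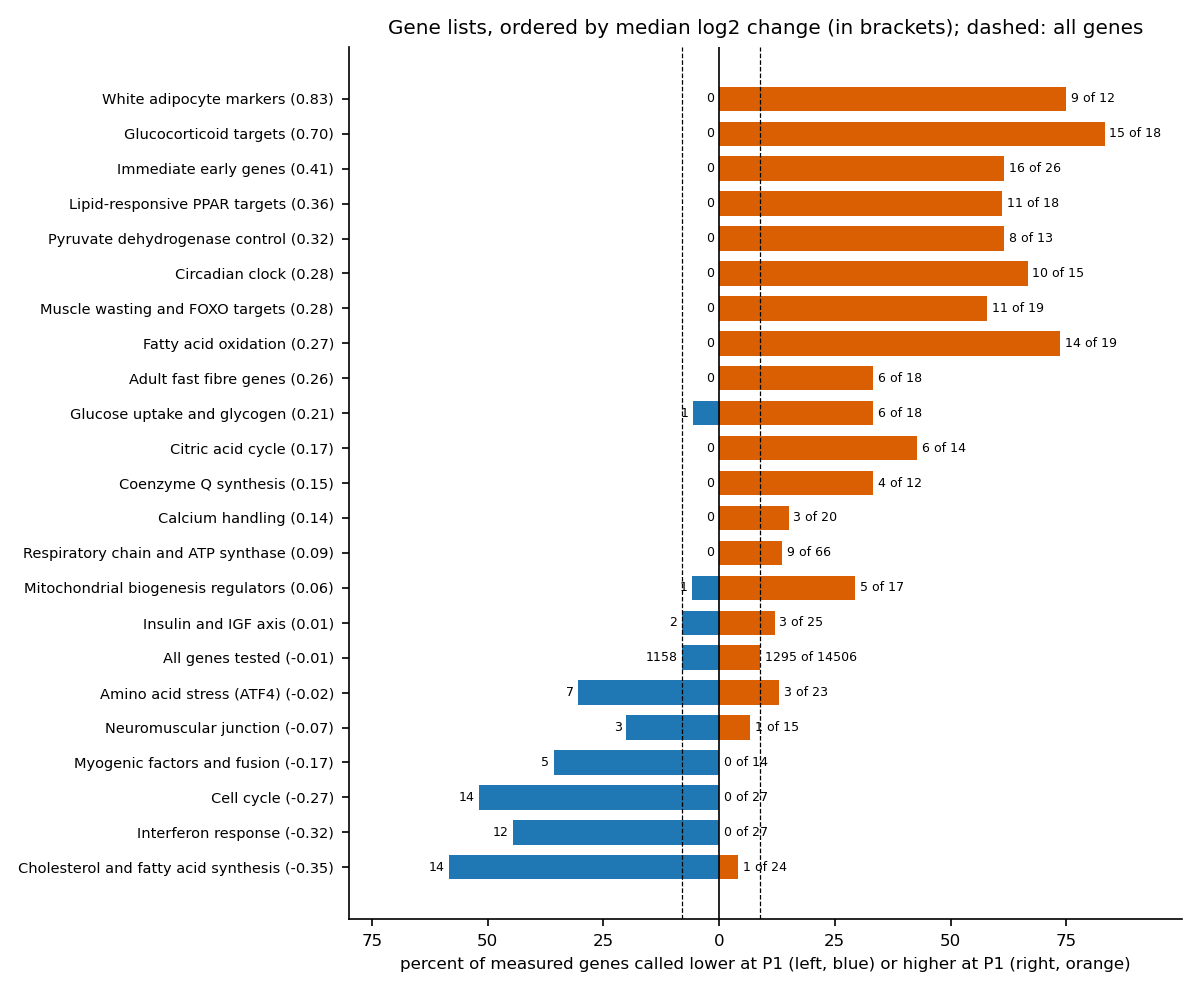
For each gene list the bars give the percent of measured genes called higher at P1 (right) or lower at P1 (left), with counts beside them, ordered by the median log2 change in brackets. Dashed lines mark 8.93% higher and 7.98% lower over all 14506 genes. Glucocorticoid targets reach 15 of 18 higher, and cholesterol synthesis, interferon response and cell cycle genes lie on the left.

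Of the genes whose arrays did not overlap, the 4 with the most negative change were interferon-stimulated. Such genes make up the antiviral state that type I interferons induce, through transcription factors that bind interferon-stimulated response elements in promoters. Promoter windows from RefSeq (build GRCr8) are given here for the 5 called genes of the interferon list whose promoter held a match. *Usp18*, *Mx2* and *Isg15* had no promoter in that set. The windows run 5′ to 3′ on the strand of the gene. Capitals mark a pair of GAAA half-sites 2 bases apart, the core of such an element, or the TTTC pair of the other strand.
Oas1a, chr12:41330386-41330465 (+): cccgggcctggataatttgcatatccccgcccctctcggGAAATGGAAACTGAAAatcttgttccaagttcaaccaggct
Irf7, chr1:205800048-205800127 (-): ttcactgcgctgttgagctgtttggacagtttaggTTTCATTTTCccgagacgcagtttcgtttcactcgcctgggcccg
Oasl2, chr12:47383292-47383371 (-): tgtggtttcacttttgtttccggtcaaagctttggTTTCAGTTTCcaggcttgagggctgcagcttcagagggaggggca
Ifi27, chr6:128355193-128355272 (+): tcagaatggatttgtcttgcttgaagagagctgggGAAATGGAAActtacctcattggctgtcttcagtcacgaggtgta
Bst2, chr16:18255051-18255130 (-): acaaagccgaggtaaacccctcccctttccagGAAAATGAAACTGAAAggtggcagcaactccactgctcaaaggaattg

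The *Oas1a* and *Bst2* windows each hold 2 overlapping matches. The matches in these windows begin 41 bases before the annotated start in *Oas1a*, 69 in *Irf7*, 151 in *Oasl2*, 84 in *Ifi27* and 131 in *Bst2*. The *Ifi27* promoter held a further match upstream of its window. Of 27 measured genes of the list, 20 matched a promoter of 300 bases (250 before to 50 after the start), and 14 of the 20 held the motif on either strand. It occurred in 3.92% of all 33469 promoters. Among the 9 called genes with a promoter, 5 held it, while *Irf9*, *Oasl*, *Mx1* and *Stat2* had no match of these letters in this window. That share was smaller than the share over all 20. Members that were not called, such as *Rsad2*, *Ifit3* and *Ifih1*, held the motif too, so it did not set the called genes apart. A match is a description of the sequence and shows no binding. The palindrome ACANNNTGT, the core of a glucocorticoid receptor site, occurred in 2 of 15 promoters of glucocorticoid targets (one of them *Tsc22d3*) and in 6.86% of all promoters. The E-box CACGTG occurred in 4 of 14 clock gene promoters and in 6.42% of all.

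Of the 27 measured interferon genes, 12 were lower at P1 and none was higher (median -0.32), and without F22 replicate 5 the count was 15. *Usp18*, a protease that removes ISG15 and damps the interferon receptor, had 5.73, 5.66, 5.70, 5.71 and 5.71 at P1 and 9.82, 6.82, 8.95, 9.50 and 5.84 at F22. F22 replicates 1, 3 and 4 were high, replicate 2 was in between, and replicate 5 was close to the P1 arrays, which it exceeded slightly. The log2 change was -2.49 (SE 0.46, adjusted p = 0.000428), and -3.07 without replicate 5. In a limma fit of only the 10 arrays of F22 and P1 its adjusted p was 0.0244. *Oas1a*, an oligoadenylate synthetase that senses double-stranded RNA, had 6.30, 6.37, 6.40, 6.26 and 6.32 at P1 and 9.68, 7.30, 9.26, 9.79 and 6.50 at F22. The dynamin-like GTPase *Mx2* had 6.52, 6.65, 6.57, 6.05 and 6.06 at P1 and 9.56, 7.07, 8.56, 9.13 and 6.77 at F22. The order of the F22 arrays was alike, with replicates 1, 3 and 4 above 2 and 5.

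*Isg15*, a ubiquitin-like modifier, had 6.83, 7.09, 7.07, 7.12 and 6.97 at P1 and 10.03, 7.33, 9.58, 9.79 and 7.29 at F22, and *Irf7*, the transcription factor that amplifies interferon production, had 7.55, 7.63, 7.75, 7.79 and 7.80 at P1 and 9.58, 8.08, 9.34, 9.63 and 7.83 at F22. In these genes the P1 arrays were even and the F22 arrays were not, with an SD of 1.76 for *Usp18* at F22 against 0.02 at P1. Other called members were *Oasl2* (-1.24), *Ifi27* (-0.84), *Bst2* (-0.60), *Irf9* (-0.59) and *Stat2* (-0.33). The other 15 members did not pass. They included *Rsad2*, *Ifit3*, *Ifih1*, *Isg20* and *Ifitm3*, as well as the interferon gamma targets *Irf1* (-0.06), *Gbp2* (-0.15) and *Psmb9* (-0.13). The synthetase genes of the *Oas1* family are near-identical copies, so their probe sets can share signal. The F22 level was also above the neighbouring ages, since *Usp18* averaged 5.75 at F20, 8.19 at F22, 5.70 at P1 and 5.65 at P4, and its F22 minus F20 change was 2.44 (adjusted p = 0.00075).

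The most negative change of all probe sets belonged to *Wfdc18*, at -2.62, with F22 replicate 5 inside the P1 range and a change of -3.36 without it. The other genes with large and non-overlapping changes were of several kinds. Keratins of the inner root sheath of the hair rose, *Krt25* with 8.09, 7.51, 8.23, 7.75 and 7.80 at P1 and 6.38, 6.42, 6.22, 6.33 and 7.29 at F22, and *Krt73* by 1.18, and both were higher still at P4 (10.79 and 10.60 on average). *Hal*, the histidine ammonia lyase of skin and liver, changed by 1.31. *Ankrd1*, a stretch-responsive protein of the sarcomere, had 9.54, 9.43, 9.34, 9.41 and 9.61 at P1 and 8.42, 8.28, 8.39, 8.27 and 8.13 at F22. *Fam107a* rose by 1.17 (SE 0.07), *Lrrc2* by 1.21, *Aspa*, which splits N-acetylaspartate, by 1.15, and the hydrolase *Cmbl* by 1.30. The calcium-binding protein *Gca* was lower, with 8.33, 8.43, 7.85, 7.76 and 8.53 at P1 and 9.27, 9.60, 9.26, 9.40 and 9.57 at F22. Also lower were the fractalkine receptor *Cx3cr1* (-0.90), the BMP signalling inhibitor *Smad6* (-0.90), *Il17b* (-0.84), *Pou3f4* (-0.82) and *Lipogenin* (-0.86), as well as the interferon-linked *Dtx3l* (-1.20) and *Dhx58* (-0.85).

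Markers of other cell types differed in their counts. Of 14 erythroid markers, none was called by limma with all arrays (3 were lower at an unadjusted p of at most 0.05) and 5 were lower without F22 replicate 5. Their mean level was 9.57 to 9.96 at P1 and 8.86 on F22 replicate 5, against 10.14 to 10.46 on the other F22 arrays. Cartilage and bone markers gave 3 of 17 lower, and P1 replicate 4 had the lowest mean level of all 10 arrays (8.67). Mast cell markers gave 4 of 11 higher and 1 lower, with the tryptase *Tpsb2* at 9.45, 9.43, 9.74, 9.82 and 9.62 at P1 and 8.69, 8.66, 8.80, 8.67 and 8.43 at F22. Without F22 replicate 5 the mast cell counts were 3 higher and 2 lower. The mean level of these markers was 7.41 on that array, against 7.66 to 7.79 on the other F22 arrays. Macrophage markers gave 2 of 13 higher and 1 lower, and endothelial markers 3 of 10 higher.

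**Figure D4:**
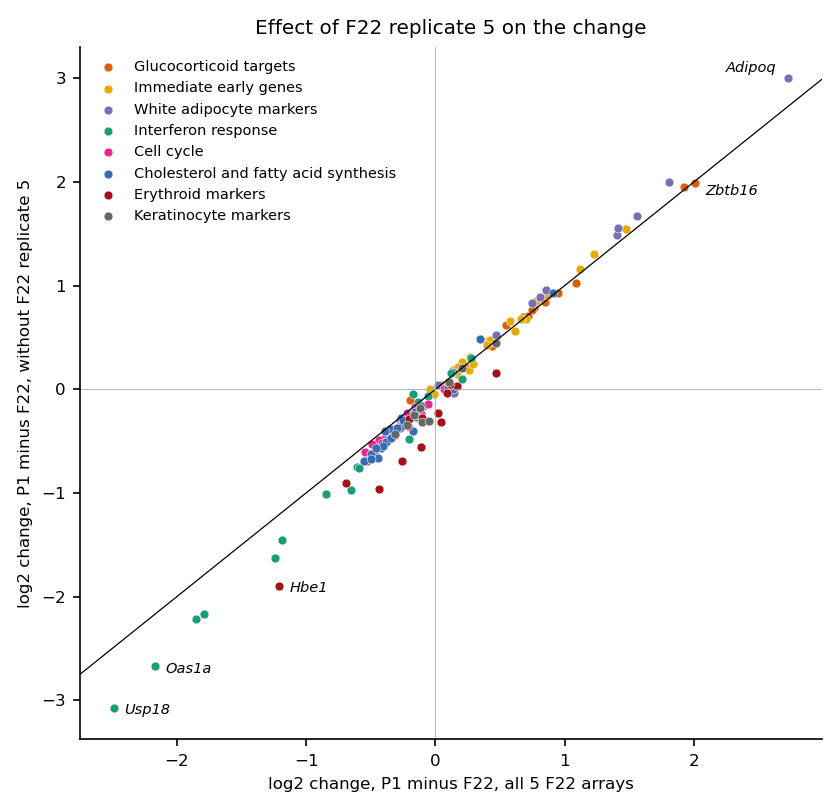
The log2 change of each gene of 8 lists is plotted with all 5 F22 arrays (x axis) and without F22 replicate 5 (y axis), with the line of equality. Interferon genes with a change beyond -0.5 and most erythroid genes lie below the line, so their change was more negative without that array, and glucocorticoid targets lie on or near it.

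The step from P1 to P4, which shares the P1 arrays with the comparison above, gave 2682 genes higher (18.5%) and 1996 lower (13.8%) at P4. Of the 18 glucocorticoid targets, 3 were higher and 9 lower at P4. *Zbtb16* averaged 8.90 at F20, 9.20 at F22, 11.20 at P1 and 9.09 at P4, and its P4 minus P1 change was -2.12 (adjusted p = 8.5e-14). *Fkbp5* averaged 9.70, 9.50, 10.59 and 8.88 at these ages. For *Klf9* the P4 minus P1 change was -1.18, for *Per1* -1.28, for *Trim63* -0.67 and for *Ppargc1a* -0.76. P1 was thus the highest of the measured ages for *Zbtb16* and *Fkbp5*.

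The lists of fuel use were divided at this step. Fatty acid oxidation had 7 of 19 genes higher and 3 lower at P4, pyruvate dehydrogenase control 1 of 13 higher and 3 lower, and glycolysis 3 of 22 higher and 11 lower. *Pdk4* averaged 8.40 at F20, 9.22 at F22, 10.84 at P1 and 10.68 at P4, and the last step did not pass the test (adjusted p = 0.53). *Coq8a* was higher again at P4 by 0.56 and *Ucp3* by 0.98. The fast myosin *Myh2* was higher by 1.79 at P4 than at P1. Of 27 cell cycle genes, 11 were higher and 8 lower at P4, and the change from P1 to P4 was 0.48 for *Plk1* and -0.44 for *Kif20a*.

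**Figure D5:**
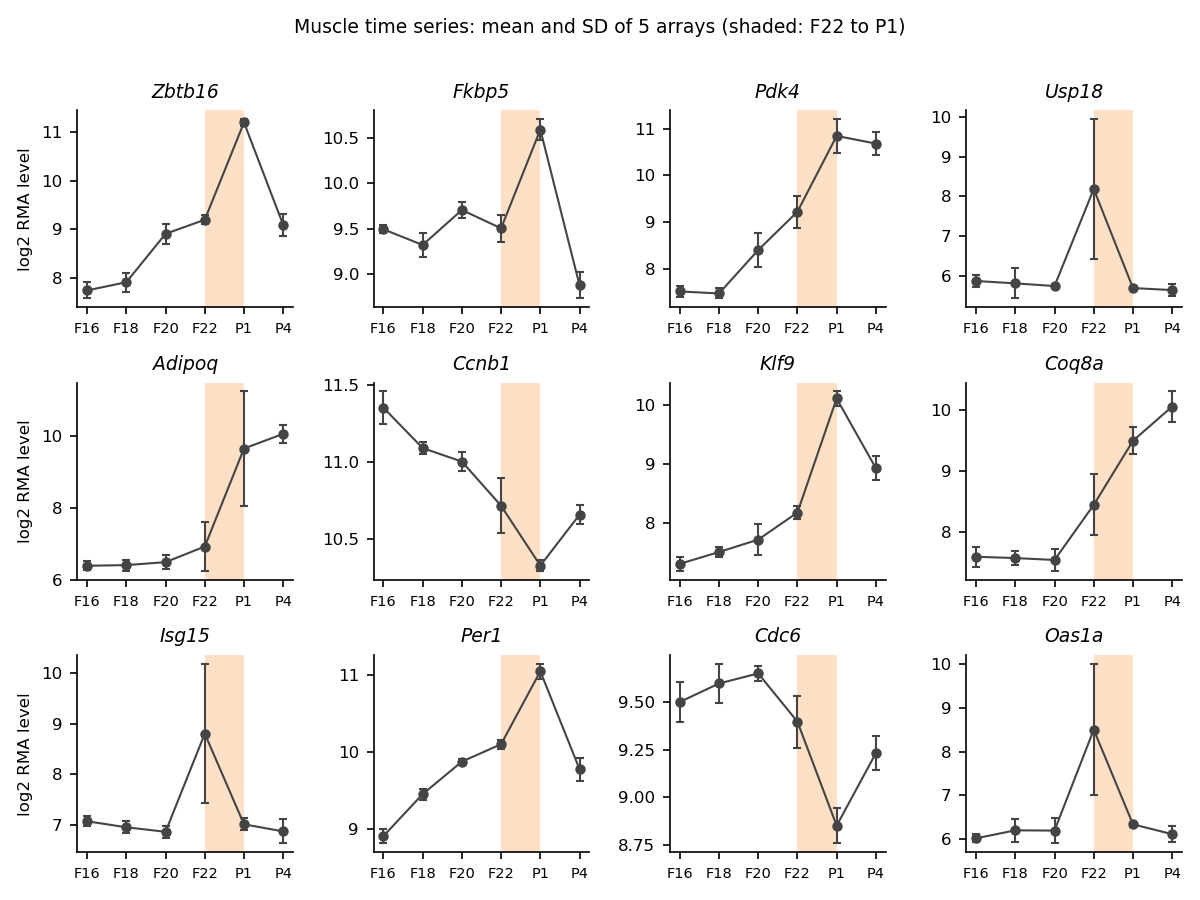
The mean log2 RMA level (y axis) of 12 genes with its SD (n = 5 arrays) is plotted against age from F16 to P4, with the step from F22 to P1 shaded. *Zbtb16*, *Fkbp5* and *Per1* peak at P1, *Pdk4* and *Coq8a* are also high at P4, and *Usp18*, *Isg15* and *Oas1a* are high at F22 only.

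For the 5 highest and 5 lowest of these genes the same step was set beside the liver of the series (4 arrays each at P1 and F22), in a joint model of 45 arrays. They were chosen by their large change in muscle, which also enters the difference between tissues. This choice tilts the differences toward the muscle direction, by an amount that was not tested. *Zbtb16* changed by 1.10 in liver (SE 0.18) and the difference, muscle minus liver, was 0.91 (SE 0.24, adjusted p = 0.00313). *Klf9* changed by 1.01 in liver, a difference of 0.92 (adjusted p = 0.00116). *Atf3* went the other way in liver, by -0.65, and the difference was 2.12 (adjusted p = 9.93e-07). *Pdk4* changed by 1.82 in liver, and the difference of -0.20 (SE 0.30) had an adjusted p of 0.676. The interferon gene *Usp18* changed by -2.17 in liver (SE 0.48), *Oas1a* by -1.36 and *Mx2* by -1.19, while the liver change of *Isg15* was -0.76 and did not pass (adjusted p = 0.113). None of these 4 differences passed, and neither did that of *Pnpla2* (0.55, adjusted p = 0.201), which changed by 1.26 in liver. The liver value of *Gca* was -0.27 and did not pass (adjusted p = 0.349), a difference of -0.97 (adjusted p = 0.00702). Liver and muscle arrays were normalised in separate runs, so only the changes within each tissue were set side by side.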

How the data were processed

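Muscle RNA of the hind limb was measured on the GeneChip Rat Gene 1.0 ST array. The deposited values are log2 intensities, which the authors made with the RMA algorithm of the Affymetrix Expression Console. Its version was not given in the sources used here. Of 29214 probe sets, 15310 with a single gene symbol were tested, 323 had several symbols and 13581 had none. A gene was represented by its probe set with the highest mean, which gave 14506 genes, 527 of them with several probe sets. In limma 3.58.1 (R 4.3.3), lmFit and eBayes were run on 25 muscle arrays, with the contrast P1 minus F22, Benjamini-Hochberg adjustment over all 15310 probe sets and an adjusted p threshold of 0.05. The test was checked on simulated data. The number of arrays limits the precision.

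Genes named were the 15 highest and 15 lowest called genes whose arrays did not overlap, up to 6 called members of each list described, and *Pdk4*, the *Coq* genes and *Ndufa9*, which the study singles out. Further members of the lists, and *Wfdc18*, *Lce1f*, *Car5b* and *Gpd1*, were named after their values were seen. The members and lists were chosen with earlier results of these data known. Alternatives were other sets of arrays, array weights, the prior, a replicate block, normalisation, centring, a filter on dim probe sets, averaged probe sets and unadjusted p. Motifs were searched on both strands of 33469 RefSeq promoters (GRCr8). Array running numbers in the labels follow the groups, so array order and age cannot be told apart.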

Additional observations from a re-analysis of the deposited data

Results flagged for a closer look

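Within the groups of 5 arrays, 42 named genes were screened for an array that lay far from the rest, by the gap to its nearest neighbour as a share of the whole range of the group (critical value 0.71). Of 84 groups, 9 exceeded it, and chance alone flags about 1 in 20. F22 replicate 5 accounted for *Pnpla2* (high, 0.715 of the range), *Pdk4* (high, 0.806), *Krt25* (high, 0.809), *Coq10a* (high, 0.854) and *Pou3f4* (low, 0.795). For *Pdk4* this array stood at 9.83, against 9.17 for the next. F22 replicate 3 was high for *Zbtb16* (0.887), with a level of 9.36 against 9.16 for the next array. Among the P1 arrays, replicate 2 was low for *Klf9* (0.714), replicate 3 was low for *Aspa* (0.858) and replicate 1 was high for *Lipogenin* (0.748). Of these arrays, F22 replicate 5 overlapped with the P1 arrays for *Coq10a* and none overlapped for the other 8 genes.

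The change across birth differed between tissues for 4 of the 10 genes compared with liver. The 10 were chosen by their large change in muscle, which tilts the differences toward the muscle direction. Muscle minus liver was 0.909 for *Zbtb16*, 0.917 for *Klf9*, 2.12 for *Atf3* and -0.966 for *Gca*, with adjusted p-values from the limma interaction term of 0.00313, 0.00116, 9.93e-07 and 0.00702. *Zbtb16* and *Klf9* were higher at P1 in both tissues, while *Atf3* was higher at P1 in muscle and lower in liver.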

How the results depend on the processing

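In 20 settings, no named gene that was called in the main fit or in the setting changed sign. Signs of genes called in neither were not followed. Of the 144 named genes, 118 gave the same verdict in every setting run on them (48 were not among the brighter probe sets). The least stable calls, lost in 10 or 11 settings, were *Myoz1*, *Dok7*, *Etv5*, *Cpt1b*, *Coq10a* and *Chrng*. Leaving out 1 F22 or P1 array at a time gave 2023 to 2820 called probe sets, 34 to 49 higher by over 2-fold and 14 to 44 lower by over 2-fold. That last count was 15 without F22 replicate 1, 14 without replicate 4 and 44 without replicate 5, against 23 with all arrays. Without 4 muscle arrays at a distance from the rest of their age (replicate 5 at F16, F20 and F22, and replicate 4 at F20), 1793 were lower, 49 of them by over 2-fold. Without F22 replicate 5 and P1 replicate 4 together, a setting chosen after seeing the data, 59 were higher and 45 lower by over 2-fold. Array weights gave 4603 calls, 2193 higher and 2410 lower, with 52 lower by over 2-fold. The cause was not tested. Unadjusted p-values gave 4220, 2168 higher and 2052 lower. The brighter probe sets alone, which are fewer by construction, left 13 and 4 changes over 2-fold. Centring moved the share of higher calls to 59.6%, against 52.8%. The second probe set of *Cs* was not called (0.08), while those of *Bnip3*, *Cd36*, *Mt2A*, *Pdha1* and *Uqcrb* were.

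Whether the replicate numbers pair the arrays was not tested. Deviations of P1 and F22 arrays with the same number correlated at 0.0346 to 0.366, against -0.367 to 0.246 for different numbers. Of the P1 arrays, 2 correlated best with their own number. With a replicate block 2397 probe sets were called, 1275 higher and 1122 lower.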

Other observations

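Regulators of inflammation and chaperones were also measured across birth. Of 18 genes of the acute phase response and its regulators, 7 were higher at P1 and none lower. *Nfkbia*, the inhibitor that holds NF-kappa B in the cytoplasm, had 11.02, 10.79, 10.93, 10.95 and 11.08 at P1 and 10.03, 9.82, 10.07, 9.97 and 9.99 at F22, a log2 change of 0.98. The transcription factors *Cebpd* and *Cebpb* rose by 0.68 and 0.47 and the chemokine *Ccl2* by 0.72. Among 19 heat shock and chaperone genes, 4 were higher and 1 lower (median -0.04), and without F22 replicate 5 they were 4 and 4. The small heat shock proteins of muscle *Hspb6* and *Hspb7* rose by 0.90 and 0.68, with *Hspb6* at 11.49, 11.76, 11.58, 11.66 and 11.79 at P1 and 10.72, 10.10, 10.71, 10.31 and 11.93 at F22, where replicate 5 was above all P1 arrays.

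Genes of the response to low oxygen did not move as 1 group. Of 24, 5 were higher at P1, among them the vasodilator peptide *Adm* (0.53), the haem oxygenase *Hmox1* (0.56) and *Pfkfb3* (0.49), which makes an activator of glycolysis. The 3 that were lower were the growth factor *Vegfa* (-0.23), *Ankrd37* (-0.28) and the oxidoreductase *Ero1a* (-0.31). Between P4 and P1, a comparison that shares the P1 arrays, 15 of the 24 were lower at P4 and none was higher. Of 68 mitochondrial ribosomal protein genes, 9 were higher at P1, led by *Mrps9* at 0.40, and 1 was lower (median 0.01). Over all genes 8.93% were higher and 7.98% lower. Without F22 replicate 5 the counts for this list were 6 higher and 1 lower. All 14 neutrophil markers but 1 were called higher at P4 than at P1, while 1 of the 14 was called, as lower, between P1 and F22.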
